A study of Mus musculus with 6 samples.

Results

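PGAM5 is a protein phosphatase of the mitochondrial membranes, and its gene Pgam5 was described here together with 6 genes whose proteins it works with: Parl, Keap1, Map3k5, Ripk1, Ripk3 and Mlkl. The 7 genes were chosen by name, with earlier results of these data known. All 7 were found by their GENCODE M21 symbol among the 54532 genes of the files. Their levels were read in 6 RNA sequencing libraries of immortalised mouse bone marrow-derived macrophages, cultured macrophages that keep dividing. In 3 libraries a short hairpin RNA knocked down PGAM5, and in the other 3 a short hairpin RNA knocked down DRP1, the GTPase that divides mitochondria. All 6 cultures had been given interleukin-4, a cytokine of anti-inflammatory activation, at 10 ng/ml for 24 hours. Every difference below is therefore PGAM5 knockdown against DRP1 knockdown in stimulated cells. A gene said to rise or fall was higher or lower in the PGAM5 knockdown than in the DRP1 knockdown. No library without a knockdown and none without interleukin-4 was analysed here, so which of the 2 knockdowns moved a gene cannot be told apart. Nothing in the titles tells if a number from 1 to 3 marks its own culture or its own hairpin. The p-values below thus reflect the spread among 6 libraries, and part of that spread may be technical.

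PGAM5 carries the name of a sugar phosphate mutase family but removes phosphate from proteins. A helix at its amino end holds it in the membrane, where the rhomboid protease PARL can cut it when mitochondria lose their potential. It binds KEAP1, the adaptor that sends the antioxidant transcription factor NRF2 to destruction, and it activates ASK1, the stress kinase encoded by Map3k5. In necroptosis, a lytic form of cell death, RIPK1 and RIPK3 join through a shared motif, RIPK3 phosphorylates MLKL, and MLKL breaks the plasma membrane. PGAM5 was proposed to act below RIPK3 by activating DRP1 at mitochondria, a role that other work has disputed. Macrophages are a cell type in which this pathway is well known.

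Levels are given in FPKM, fragments scaled to the length of the gene model and to the depth of the library. Levels of different genes can so be compared per length, but the effect of exons shared with other genes was not tested. Whole reads could be recovered from the values with a scaling depth of 16111281 to 21933548 reads per library. The reads so recovered sum over all genes to 17030470 to 23272464, above the scaling depth in every library, and the cause of that gap was not tested. Of the 9 macrophage markers looked up, 8 averaged at least 1 FPKM over the libraries, among them Cd14, Lyz2, Cd68, Spi1 and Adgre1. Mertk was at 0 to 0.0130 FPKM. The summed macrophage markers ranged from 3763 to 3934 FPKM in the PGAM5 knockdown, against 4814 to 4857 FPKM in the DRP1 knockdown, and the part of this in the results below was not tested. Most of that gap lay in Lyz2 (1229 to 1355 FPKM in the PGAM5 knockdown, against 1948 to 1964 FPKM in the DRP1 knockdown). Cd68, Csf1r, Fcgr1 and Cd14 were also lower, without overlap of the groups, where 20.5% of all genes tested below lay wholly lower. For Cd14 the gap was narrow, at 1627 to 1686 FPKM in the PGAM5 knockdown, against 1692 to 1730 FPKM in the DRP1 knockdown. The ranges of Spi1, Adgre1 and Itgam overlapped between the groups. None of the 34 markers of T cells, B cells, neutrophils, dendritic cells, stroma, endothelium and epithelium averaged 1 FPKM. Within groups, PGAM5 knockdown library 3 stood farthest from its partners (chi-square per gene 8.09 and 5.64, against 2.65 to 3.27 for the other pairs), and sampling noise alone was exceeded in all pairs.

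Of the 7 genes, Pgam5 fell and Ripk3 and Map3k5 rose in the PGAM5 knockdown, while Parl, Keap1, Ripk1 and Mlkl did not pass the test. The test was limma on log2(FPKM + 1) over the 10634 genes with a mean of at least 1 FPKM, with Benjamini-Hochberg adjustment and a threshold of 0.05. All 7 genes passed that filter. So 2 were called higher and 1 lower, where 13.8% of all tested genes were called higher, 11.7% lower and 25.4% in either direction. The groups did not overlap for the same 3 genes, where 43.5% of all tested genes had groups that did not overlap, 23% with the PGAM5 knockdown above and 20.5% with it below. Pgam5, the 1 called lower, is the target of the PGAM5 hairpin, so its call and its lack of overlap follow from the design. Among its partner genes only Ripk3 and Map3k5 were called. The median log2 difference of all tested genes was 0.0094. The call of Map3k5 was the least firm, so that 1 of the 7 genes was called higher when any of 4 libraries (PGAM5 knockdown 1 and 2, DRP1 knockdown 1 and 3) was left out. Without PGAM5 knockdown library 3, which stood apart, 2 were called higher and 1 lower, and the limma adjusted p was 2.5e-05 for Pgam5, 0.0016 for Ripk3 and 0.028 for Map3k5.

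**Figure D1:**
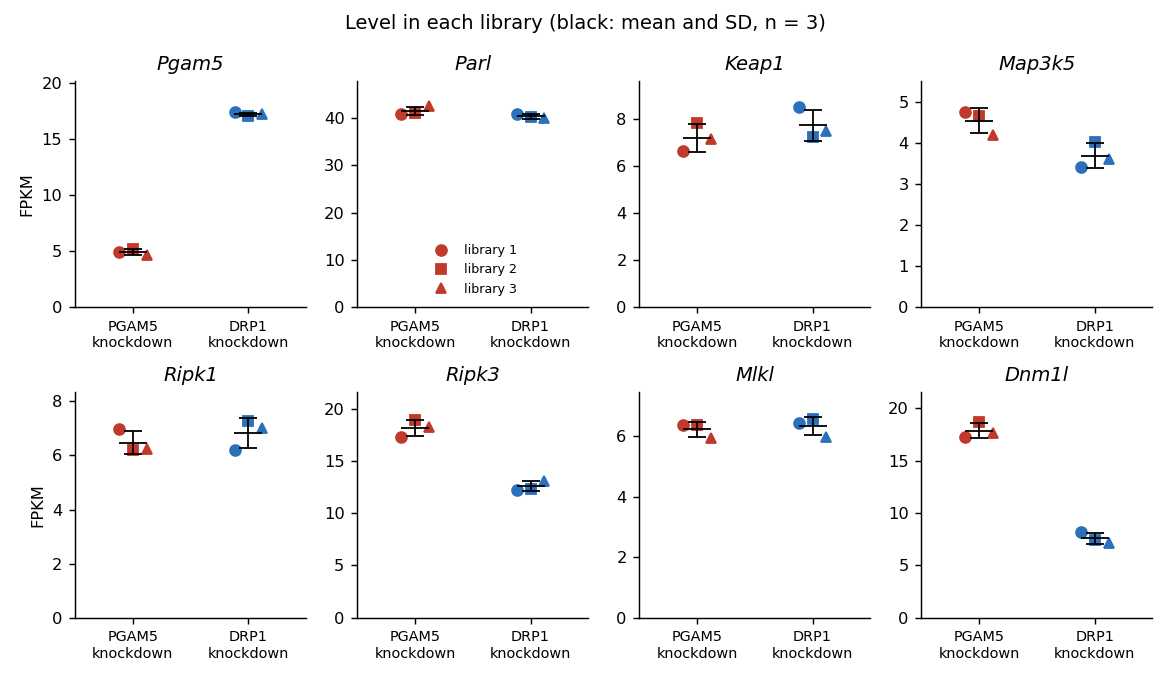
FPKM of the 7 genes and of Dnm1l, the gene of DRP1, in each library, with PGAM5 knockdown in red at the left and DRP1 knockdown in blue at the right of each panel; black bars are the mean and SD of 3 libraries. The groups do not overlap for Pgam5, Map3k5, Ripk3 and Dnm1l, and they overlap for Parl, Keap1, Ripk1 and Mlkl.

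Pgam5 itself (ENSMUSG00000029500, chromosome 5, 110259130 to 110269913, minus strand, mm10) checked the labels. It had 4.91, 5.21 and 4.60 FPKM in the PGAM5 knockdown libraries, against 17.3, 17.1 and 17.2 FPKM in the DRP1 knockdown libraries. All libraries labelled as PGAM5 knockdown lay below all others, and transcript remained in each of them. The mean level was 28.6% of that in the DRP1 knockdown (log2 difference -1.62, SE 0.047, limma adjusted p = 4.5e-06). Only 0.103% of tested genes had a larger absolute difference. The values rested on 200 to 207 reads in the PGAM5 knockdown, against 663 to 893 reads in the DRP1 knockdown. With so few reads, counting alone gives a coefficient of variation of 7.02% in the PGAM5 knockdown, and the observed one was 6.23%. With 3 libraries against 3, an exact permutation test cannot go below a two-sided p of 0.1, and Pgam5 gave 0.1.

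Part of the Pgam5 gene model is shared with other annotated transcripts. The lincRNA Gm26718, on the opposite strand, covered 58.1% of the exonic bases of Pgam5, and it was listed at 0 FPKM in every library. Whether the counting used strand is not stated in the labels, so reads of the 2 genes over these bases cannot be told apart, and the effect on the level of Pgam5 was not tested. Dnm1l, the other target, had 17.2, 18.7 and 17.7 FPKM in the PGAM5 knockdown, against 8.18, 7.42 and 7.12 FPKM in the DRP1 knockdown. It was thus 2.36-fold higher in the PGAM5 knockdown, with no overlap of the groups (limma adjusted p = 2.9e-05).

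Within 100 kb of Pgam5, 16 other genes are annotated and 5 were tested, of which 0 rose and 0 fell (median log2 difference -0.0027). So few genes say little beside the 25.4% of all tested genes that were called. Ankle2, which lies 2479 bases away and encodes a protein of nuclear envelope assembly, had 14.9 ± 0.19 FPKM in the PGAM5 knockdown and 14.9 ± 0.76 FPKM in the DRP1 knockdown (SD, n = 3 each). Pole, the gene of the catalytic subunit of DNA polymerase epsilon, had 2.03 ± 0.12 and 1.79 ± 0.17 FPKM in the PGAM5 and DRP1 knockdown. For Golga3, a gene of a Golgi protein, these means were 6.34 ± 0.24 and 6.12 ± 0.38 FPKM. Chfr, a mitotic checkpoint ubiquitin ligase gene, had 12.4 ± 0.73 and 13.5 ± 0.084 FPKM, and Fbrsl1 3.95 ± 0.28 and 4.23 ± 0.19 FPKM, in the same order. The groups did not overlap for Chfr, which did not pass (limma adjusted p = 0.131).

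Parl, the gene of the protease that cuts PGAM5, was the most abundant of the 7 and did not pass the test. Parl (ENSMUSG00000033918, chromosome 16, 20279818 to 20302387, minus strand) had 40.9, 41.1 and 42.6 FPKM in the PGAM5 knockdown, against 40.9, 40.2 and 40.02 FPKM in the DRP1 knockdown. The groups overlapped. The log2 difference was 0.040 with a 95% interval of -0.031 to 0.11, which on the FPKM + 1 scale is a ratio between 0.979 and 1.08 (limma adjusted p = 0.382). This is the tightest interval among the 7, on 2569 to 3418 reads per library. The ratio of the level of Parl to that of Pgam5 was 8.34, 7.87 and 9.26 in the PGAM5 knockdown libraries, against 2.36, 2.36 and 2.33 in the DRP1 knockdown libraries. This ratio follows from the knockdown of Pgam5 and was not tested.

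Keap1 (ENSMUSG00000003308, chromosome 9, 21229730 to 21239361, minus strand) had 6.64, 7.83 and 7.16 FPKM in the PGAM5 knockdown, against 8.50, 7.25 and 7.49 FPKM in the DRP1 knockdown. The groups overlapped, and Keap1 did not pass (log2 difference -0.091, 95% interval -0.26 to 0.082, limma adjusted p = 0.410). The spread between libraries was wide for this gene, with a coefficient of variation of 8.25% in the PGAM5 knockdown, against 8.58% in the DRP1 knockdown, where counting alone gives 4.12% and 3.87%. Of its exonic bases, 10.9% are also exons of Gm16754 on the opposite strand, which averaged 0.35 FPKM.

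Map3k5, the gene of the stress kinase ASK1, was the least abundant of the 7 in the DRP1 knockdown and was higher in the PGAM5 knockdown. Map3k5 (ENSMUSG00000071369, chromosome 10, 19934472 to 20142753, plus strand) had 4.75, 4.66 and 4.19 FPKM in the PGAM5 knockdown, against 3.42, 4.02 and 3.61 FPKM in the DRP1 knockdown. The lowest PGAM5 knockdown library lay close above the highest DRP1 knockdown library. The mean level was 1.23-fold higher (log2 difference 0.24, SE 0.069, 95% interval 0.079 to 0.40, limma adjusted p = 0.040). The gap between the groups was narrow for the spread of this gene, whose coefficient of variation was 6.66% in the PGAM5 knockdown, against 8.40% in the DRP1 knockdown, on 335 to 514 reads per library. Across 13 alternatives its adjusted p lay between 0.016 and 0.124. It no longer passed without PGAM5 knockdown library 1 (adjusted p = 0.104) or 2 (0.111), without DRP1 knockdown library 1 (0.124) or 3 (0.115), with no filter on low values (0.106) and with the replicate number as a block (0.063). No other annotated gene overlapped its exons.

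Ripk3, the kinase that phosphorylates MLKL, was the clearest change among the partners. Ripk3 (ENSMUSG00000022221, chromosome 14, 55784995 to 55788865, minus strand) had 17.3, 18.9 and 18.2 FPKM in the PGAM5 knockdown, against 12.3, 12.3 and 13.1 FPKM in the DRP1 knockdown. The groups were far apart, with the lowest PGAM5 knockdown library well above the highest DRP1 knockdown library. The mean level was 1.44-fold higher (log2 difference 0.50, SE 0.045, 95% interval 0.39 to 0.60, limma adjusted p = 0.00038, exact permutation p = 0.1). Of all tested genes, 4.15% had a larger absolute difference. The values rested on 705 to 766 reads in the PGAM5 knockdown and 453 to 659 reads in the DRP1 knockdown. The spread between libraries (4.44% in the PGAM5 knockdown, against 3.72% in the DRP1 knockdown) was near that of counting alone (3.71% and 4.36%). The call held under all 13 alternatives, with adjusted p between 3.9e-05 and 0.0034. No other gene overlapped the exons of Ripk3, and blastn found no near-identical transcript of another gene.

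**Figure D2:**
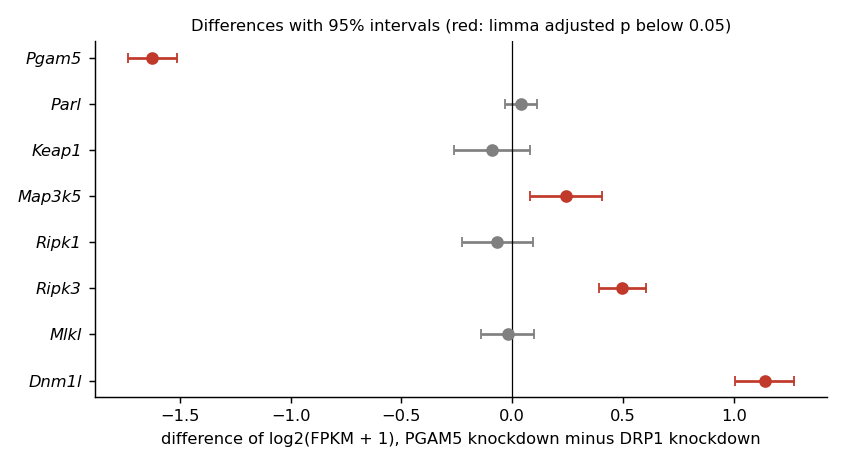
Difference of log2(FPKM + 1), PGAM5 knockdown minus DRP1 knockdown, for the 7 genes and Dnm1l, with 95% intervals from limma; red marks an adjusted p below 0.05. Pgam5 lies at -1.62, Ripk3 at 0.50 and Map3k5 at 0.24, and the intervals of Parl, Keap1, Ripk1 and Mlkl include 0.

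The window around Ripk3 was looked at after the value of Ripk3 was seen. Within 100 kb, 14 other genes are annotated and 4 were tested, of which 0 rose and 1 fell (median log2 difference -0.062), too few to read against the 25.4% of all tested genes called. The gene that fell was Dhrs1, of the short-chain dehydrogenase family, with 7.82 ± 0.71 FPKM in the PGAM5 knockdown and 10.3 ± 0.21 FPKM in the DRP1 knockdown (log2 difference -0.36, limma adjusted p = 0.0052). Nop9, Rabggta and Khnyn did not pass. Around Map3k5, Pex7 was the 1 tested gene within 100 kb, and it had 2.11 ± 0.24 and 2.22 ± 0.040 FPKM in the PGAM5 and DRP1 knockdown.

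The 250 bases before the RefSeq start of Ripk3 and of Map3k5 (GRCm38.p6) are shown because these were the partner genes that rose, and those of Mlkl because its gene acts in the same step as Ripk3 and did not pass. They are chr14:55788858-55789107 on the minus strand for Ripk3, chr10:19934276-19934525 on the plus strand for Map3k5 and chr8:111338206-111338455 on the minus strand for Mlkl, each read 5′ to 3′ toward the gene. Capitals mark matches on either strand to CACGTG (an E-box), GGGCGG (a GC box, also seen as CCGCCC) and GAGGAA (the core bound by the macrophage factor PU.1).
Ripk3: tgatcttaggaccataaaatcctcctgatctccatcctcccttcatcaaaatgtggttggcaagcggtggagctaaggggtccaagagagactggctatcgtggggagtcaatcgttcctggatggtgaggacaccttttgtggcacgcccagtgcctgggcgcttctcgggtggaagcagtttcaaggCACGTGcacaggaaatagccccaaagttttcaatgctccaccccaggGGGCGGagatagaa
Map3k5: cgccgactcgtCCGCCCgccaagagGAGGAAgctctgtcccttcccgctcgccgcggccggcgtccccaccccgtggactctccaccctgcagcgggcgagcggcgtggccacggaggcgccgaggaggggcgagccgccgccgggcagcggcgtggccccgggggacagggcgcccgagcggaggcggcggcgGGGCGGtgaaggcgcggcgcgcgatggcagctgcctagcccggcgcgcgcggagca
Mlkl: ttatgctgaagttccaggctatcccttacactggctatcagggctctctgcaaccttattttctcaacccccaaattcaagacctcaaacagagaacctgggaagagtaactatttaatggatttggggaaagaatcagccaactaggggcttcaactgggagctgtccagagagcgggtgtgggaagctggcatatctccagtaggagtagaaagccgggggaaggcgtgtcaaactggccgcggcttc

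The promoter of Ripk3 held 1 CACGTG, which begins 61 bases before the start, and 1 GGGCGG, which begins 14 bases before it. Among 32851 RefSeq promoter windows of the same length, 6.0% hold CACGTG, 32.7% GGGCGG and 23.3% GAGGAA. Map3k5 held GGGCGG at 2 places and GAGGAA at 1, and it was rich in G and C, at 80.8% of bases with 43 CpG, against a median of 52.4% and 6 over all windows. Mlkl held none of the 3 motifs in these bases. The other genes that did not pass did hold some of them. Keap1 held GGGCGG at 1 place, and Ripk1 held it at 2 and at 4 places in its windows. GAGGAA was at 1 place in Parl and at 2 in a window of Ripk1. CCAAT, which 33.8% of windows hold, was searched too and was in no window of the 6 genes with an entry in the table (Keap1, Map3k5, Mlkl, Parl, Ripk1 and Ripk3). RefSeq and GENCODE M21 starts differ, so the windows of Ripk3, Map3k5, Keap1 and Parl and a window of Ripk1 reach into the gene models. These motif matches describe letters and say nothing of which factor binds.

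Ripk1, the partner of Ripk3 in the necrosome, did not pass. Ripk1 (ENSMUSG00000021408, chromosome 13, 34002363 to 34037147, plus strand) had 6.98, 6.22 and 6.22 FPKM in the PGAM5 knockdown, against 6.21, 7.28 and 7.02 FPKM in the DRP1 knockdown. The groups overlapped (log2 difference -0.068, 95% interval -0.23 to 0.093, limma adjusted p = 0.515). The spread was larger than that of counting, at 6.73% in the PGAM5 knockdown, against 8.13% in the DRP1 knockdown where counting gives 3.26% and 3.10%. Other annotated genes overlapped 9.0% of its exonic bases, of which the pseudogene Gm17084, at 0 FPKM, took 6.1%. The neighbouring gene Serpinb6a, on the opposite strand, averaged 11.4 FPKM and overlaps the start of Ripk1.

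Mlkl, the gene of the protein that breaks the membrane, did not pass either. Mlkl (ENSMUSG00000012519, chromosome 8, 111311797 to 111338177, minus strand) had 6.38, 6.36 and 5.93 FPKM in the PGAM5 knockdown, against 6.44, 6.56 and 5.98 FPKM in the DRP1 knockdown. The libraries were intermingled (log2 difference -0.020, 95% interval -0.14 to 0.10, limma adjusted p = 0.807). On the FPKM + 1 scale this interval is a ratio between 0.907 and 1.07, so a change of the size seen for Ripk3 lies outside it.

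The proportions of the 3 necrosome transcripts are given per library. Ripk3 stood at 2.48, 3.04 and 2.93 times the level of Ripk1 in the PGAM5 knockdown libraries, against 1.98, 1.69 and 1.87 times in the DRP1 knockdown libraries, with no overlap. Mlkl stood at 0.37, 0.34 and 0.32 times the level of Ripk3 in the PGAM5 knockdown libraries, against 0.53, 0.53 and 0.46 times in the DRP1 knockdown libraries. These proportions describe transcripts and were not tested apart from their genes.

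The order of levels was led by Parl in both groups. In the PGAM5 knockdown Ripk3 came next (18.2 ± 0.81 FPKM), then Keap1 (7.21 ± 0.59), Ripk1 (6.47 ± 0.44), Mlkl (6.22 ± 0.25), Pgam5 (4.91 ± 0.31) and Map3k5 (4.53 ± 0.30). In the DRP1 knockdown Pgam5 was second (17.2 ± 0.14 FPKM), then Ripk3 (12.6 ± 0.47), Keap1 (7.75 ± 0.66), Ripk1 (6.83 ± 0.56), Mlkl (6.33 ± 0.31) and Map3k5 (3.68 ± 0.31). The ranges of Keap1 and Ripk1 overlapped within each group, and so did those of Ripk1 and Mlkl, as did those of Pgam5 and Map3k5 in the PGAM5 knockdown. Set among all tested genes, Parl lay above 86.5% of them by mean level and Map3k5 above 27.6%. The effect of the exons that Pgam5 shares with Gm26718 on its place in this order was not tested.

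The other genes of these pathways were read from 6 lists chosen with earlier results of these data known. Each list is given by its counts and its median log2 difference, beside the 13.8% of tested genes called higher, the 11.7% called lower and the overall median of 0.0094.

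**Figure D3:**
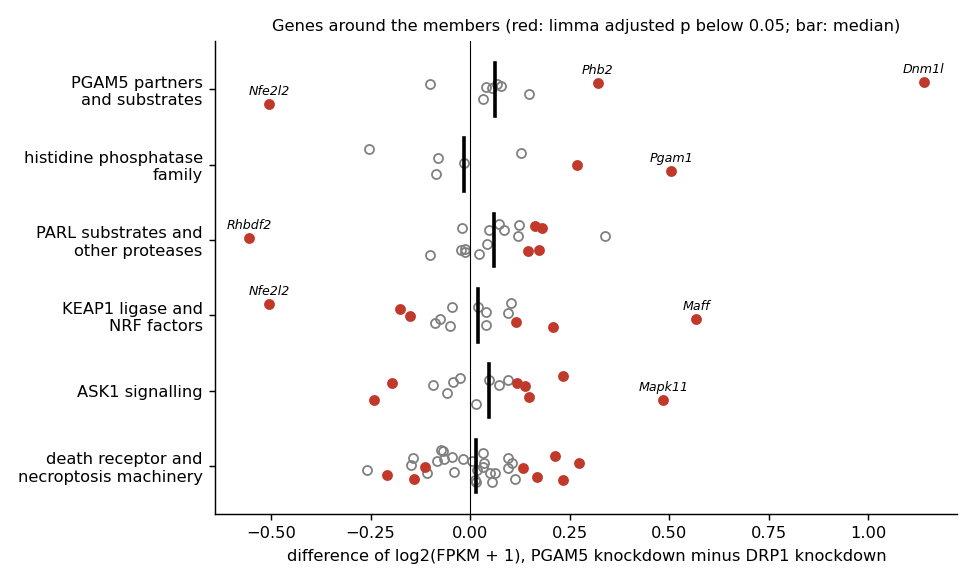
Difference of log2(FPKM + 1), PGAM5 knockdown minus DRP1 knockdown, for the tested genes of 6 lists; each circle is a gene, red circles passed limma at an adjusted p below 0.05, black bars are medians, and names mark called differences over 0.3 on either side. Medians lie near 0 in all 6 lists, and the called genes fall on both sides in 5 of them.

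Among 11 other partners and substrates of PGAM5, 10 were tested, of which 2 rose, 1 fell and 7 did not pass (median log2 difference 0.062). Those that rose were Dnm1l, the other target, and Phb2, a prohibitin of the inner mitochondrial membrane that PGAM5 binds. Dnm1l was knocked down in the DRP1 libraries, so its call, which is part of the count and of the median, follows from the design. Besides Dnm1l, only Phb2 was called higher. Phb2 had 92.9 ± 2.60 FPKM in the PGAM5 knockdown and 74.2 ± 1.51 FPKM in the DRP1 knockdown (log2 difference 0.32, limma adjusted p = 0.00055). Nfe2l2, the gene of NRF2, was the 1 that fell, with 33.0, 33.1 and 35.3 FPKM in the PGAM5 knockdown, against 47.8, 49.8 and 47.6 FPKM in the DRP1 knockdown (log2 difference -0.51, limma adjusted p = 0.00015). The mitophagy receptor gene Fundc1, a PGAM5 substrate, had 9.82 ± 0.94 FPKM in the PGAM5 knockdown and 9.55 ± 0.25 FPKM in the DRP1 knockdown, and did not pass. Bcl2l1, Mfn2, Axin1, Pink1, Aifm1 and Mavs did not pass either. Nme2, the gene of a nucleoside diphosphate kinase, lay below the filter at a mean of 0.57 FPKM, and 48.9% of its exonic bases are also exons of the read-through gene Gm20390, which was at 0 FPKM.

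Around KEAP1, 15 of 17 genes were tested, of which 3 rose, 3 fell and 9 did not pass (median 0.019). Besides Nfe2l2, the autophagy adaptor gene Sqstm1, whose protein binds KEAP1, fell to 1802 ± 30.7 FPKM in the PGAM5 knockdown, against 2000.1 ± 5.69 FPKM in the DRP1 knockdown (log2 difference -0.15, limma adjusted p = 0.0073). Gsk3b, a kinase that marks NRF2 for destruction, fell as well (log2 difference -0.18). Maff, a small MAF partner of NRF2, rose to 9.77 ± 0.087 FPKM in the PGAM5 knockdown, against 6.28 ± 0.67 FPKM in the DRP1 knockdown (log2 difference 0.57, limma adjusted p = 0.0012). Cul3, the scaffold that joins KEAP1 to the ubiquitin machinery, rose (36.0 ± 1.42 FPKM in the PGAM5 knockdown and 31.0 ± 0.86 FPKM in the DRP1 knockdown, log2 difference 0.21). Fbxw11, a receptor subunit of another ubiquitin ligase that targets NRF2, also rose (log2 difference 0.12, limma adjusted p = 0.044). The count that rose was 2 with no filter on low values, no mean-variance trend, median-of-ratios or quantile scaling, or the replicate block. With any library left out it was also 2, except without PGAM5 knockdown library 3, where it was 4. It stayed at 3 with a pseudocount of 0.1 and with voom on the recovered reads. Mrnip on the opposite strand covered 17.3% of the exonic bases of Sqstm1.

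Of 19 genes of ASK1 signalling 15 were tested, and 5 rose, 2 fell and 8 did not pass (median 0.047). Mapk11, a p38 kinase, rose to 2.88 ± 0.16 FPKM in the PGAM5 knockdown, against 1.77 ± 0.16 FPKM in the DRP1 knockdown (log2 difference 0.49, limma adjusted p = 0.0029). Mapkapk2, the kinase below p38, rose to 179.6 ± 0.80 FPKM in the PGAM5 knockdown, against 153 ± 1.46 FPKM in the DRP1 knockdown (log2 difference 0.23, limma adjusted p = 0.00063). Map2k3, the kinase between ASK1 and p38, Ppp5c, a phosphatase of ASK1, and Txnip, which binds thioredoxin, rose with log2 differences of 0.12 to 0.15. Gm15441 on the opposite strand covered 19.4% of the exonic bases of Txnip. Traf6, an adaptor that ASK1 binds, and Mapk9, a JNK kinase, fell with log2 differences of -0.24 and -0.20. The count that fell was 0 without PGAM5 knockdown library 1, without DRP1 knockdown library 1, 2 or 3, and with no filter on low values. The thioredoxin genes Txn1 and Txn2, which hold ASK1 inactive, did not pass. The related kinase genes Map3k6 and Map3k15 lay below the filter at 0.44 and 0.31 FPKM.

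Of 36 genes of death receptor signalling and necroptosis 33 were tested, and 5 rose, 3 fell and 25 did not pass (median 0.015). Rbck1, a subunit of the ligase that builds linear ubiquitin chains, had 15.7 ± 1.04 FPKM in the PGAM5 knockdown and 12.8 ± 0.60 FPKM in the DRP1 knockdown (log2 difference 0.27, limma adjusted p = 0.012). Otulin, a protease of such chains, had 83.1 ± 4.28 and 71.5 ± 1.61 FPKM in the PGAM5 and DRP1 knockdown (log2 difference 0.21, limma adjusted p = 0.0096). Rnf31 had a log2 difference of 0.17 (limma adjusted p = 0.046), while Sharpin, of the same ligase complex as Rbck1 and Rnf31, did not pass (-0.083). Cyld, Tnfaip3 and Spata2, whose proteins also act on ubiquitin chains in this pathway, did not pass either. Chmp2a, of the membrane repair complex that counters MLKL, and Mapkapk2, which phosphorylates RIPK1, made up the 5 that rose.

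Tlr4, the receptor for bacterial lipopolysaccharide, which can start necroptosis through TRIF, fell to 34.3 ± 1.18 FPKM in the PGAM5 knockdown, against 39.8 ± 0.82 FPKM in the DRP1 knockdown (log2 difference -0.21, limma adjusted p = 0.0057). Hsp90aa1, a chaperone of RIPK3, and Tab2 fell with log2 differences of -0.14 and -0.11, and 68.7% of the longest transcript of Hsp90aa1 was matched by other genes. Casp8, Cflar, Fadd and Tnfrsf1a did not pass, though the groups of Cflar and Tnfrsf1a did not overlap. The same held for Cdc37 and Traf2, also higher in the PGAM5 knockdown, and for Tradd, Xiap, Ikbkb and Map3k7, which were lower. Tradd had a log2 difference of -0.26 (limma adjusted p = 0.056). Of the 33 tested genes, 9 lay wholly higher and 7 wholly lower, where 23% and 20.5% of all tested genes did. Casp8, the protease that cuts RIPK1 and RIPK3, had 11.2 ± 0.46 FPKM in the PGAM5 knockdown and 11.6 ± 0.66 FPKM in the DRP1 knockdown. Cflar had 22.4 ± 1.28 and 20.7 ± 0.24 FPKM, Fadd 3.21 ± 0.30 and 3.43 ± 0.38 FPKM, and Tnfrsf1a 37.2 ± 2.29 and 34.7 ± 0.96 FPKM, in the same order. Fas, Zbp1, a sensor that engages RIPK3, and Tlr3 lay below the filter at 0.63, 0.20 and 0.044 FPKM over the 6 libraries. Counts of this list were not stable, with 3 that rose without DRP1 knockdown library 1, 2 or 3 and 1 that fell without DRP1 knockdown library 1 or 2.

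Among 22 PARL substrates and other mitochondrial or rhomboid proteases 18 were tested, of which 4 rose, 1 fell and 13 did not pass (median 0.060). The 4 that rose had small differences, with Hax1 at 0.18, Clpb at 0.17, Stard7 at 0.16 and Pmpca at 0.15 on the log2 scale. The first 3 encode proteins that PARL cuts or binds, and Pmpca a subunit of the protease that trims imported proteins. Inpp5e on the opposite strand covered 20.4% of the exonic bases of Pmpca. Another gene matched 66.4% of the longest transcript of Hax1, which lost its call without DRP1 knockdown library 1 or 2 (limma adjusted p = 0.055 and 0.050), and Clpb lost its call without DRP1 knockdown library 3. Without DRP1 knockdown library 1 the count that rose was 2. Rhbdf2, an inactive rhomboid that guides the TNF sheddase to the cell surface, fell to 23.7 ± 1.38 FPKM in the PGAM5 knockdown, against 35.2 ± 0.58 FPKM in the DRP1 knockdown (log2 difference -0.56, limma adjusted p = 0.00023). Oma1, Yme1l1 and Stoml2, which work at the inner membrane with PARL or PGAM5, did not pass. Diablo, a PARL substrate, lay below the filter at 0.71 FPKM, and 40.9% of its exonic bases overlapped other genes.

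Of the histidine phosphatase family, to which PGAM5 belongs by its fold, 7 of 10 genes were tested, and 2 rose, 0 fell and 5 did not pass (median -0.014). Pgam1, the glycolytic phosphoglycerate mutase, had 387, 379 and 384 FPKM in the PGAM5 knockdown, against 267, 271 and 270.1 FPKM in the DRP1 knockdown (log2 difference 0.51, limma adjusted p = 2.8e-05). Another gene matched 43.1% of its longest transcript. Ubash3b, a tyrosine phosphatase gene, rose to 7.06 ± 0.097 FPKM in the PGAM5 knockdown, against 5.69 ± 0.35 FPKM in the DRP1 knockdown (log2 difference 0.27, limma adjusted p = 0.0085). Tigar, Pfkfb3, Pfkfb4, Bpgm and Pgam2 did not pass.

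The genes whose pattern over the 6 libraries lay nearest to that of Pgam5 were AU022793, Igf1, Gpnmb, Dok7 and Cd33. Nearness was the root mean square distance between centred log2(FPKM + 1) profiles, which was 0.11 for the lincRNA AU022793, 0.18 for Igf1, 0.20 for Gpnmb and 0.28 for Dok7 and Cd33. Nearness to Pgam5 brings a low level in the PGAM5 knockdown with it, so their differences are a description. Igf1 and Dok7 averaged 0.24 and 0.62 FPKM in the PGAM5 knockdown, against 2.00 and 2.47 FPKM in the DRP1 knockdown. They passed the filter through the DRP1 knockdown, and adding 1 FPKM shrinks the differences of such low genes. As ratios of mean FPKM, Igf1 stood at 0.120 and Gpnmb at 0.426, against 0.286 for Pgam5. Cd33, a sialic acid receptor of myeloid cells, had 10.7 ± 0.45 FPKM in the PGAM5 knockdown and 23.7 ± 0.16 FPKM in the DRP1 knockdown. Its log2 difference of -1.07 was smaller than that of Pgam5.

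**Figure D4:**
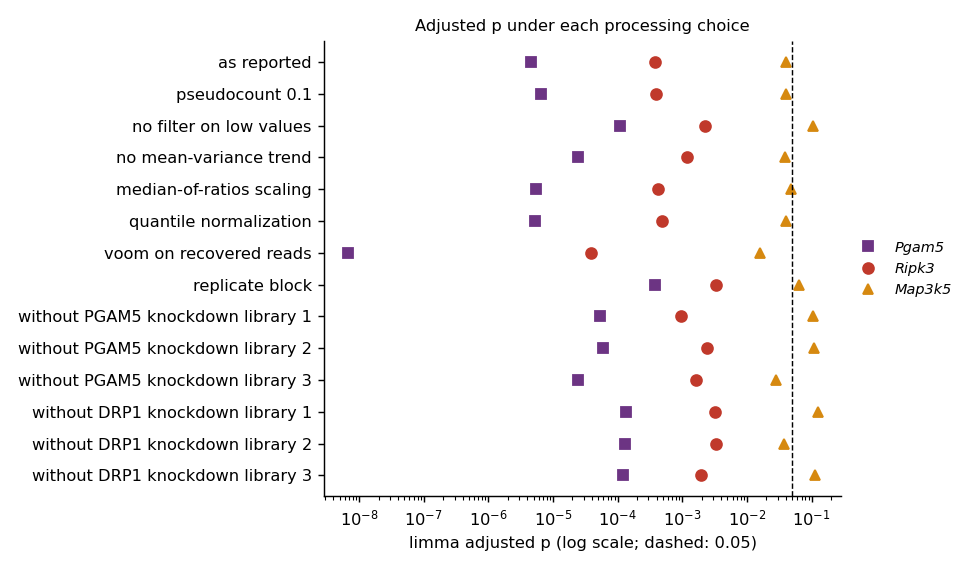
Limma adjusted p (log scale) of Pgam5, Ripk3 and Map3k5 as reported and under 13 alternatives; the dashed line marks 0.05. Pgam5 and Ripk3 stay left of the line throughout, and Map3k5 lies right of it in 6 alternatives.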

How the data were processed

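RNA was measured in 6 libraries, 3 per group, grouped by the sample titles. The deposited values are FPKM, 1 per Ensembl gene and library. Per the submitters' processing notes, HISAT2 2.0.5 and featureCounts 1.5.0-p3 were used with the build mm10. Their annotation release, strand setting and FPKM formula are not stated in the labels. Symbols, coordinates and exonic lengths came from GENCODE M21 on the same build, by gene ID (54495 matched, 37 not). Multiplied by exonic length and a single depth per library, 96.1% of values above 0 came within 0.02 of whole reads. Those reads cover counting error only.

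Genes with a mean of at least 1 FPKM were tested with limma 3.58.1 in R 4.3.3 on log2(FPKM + 1), with a mean-variance trend, two-sided, adjusted over all 10634 genes. Differences are PGAM5 knockdown minus DRP1 knockdown and understate low genes. Folds are ratios of mean FPKM. Transcripts were compared by blastn 2.17.0 (97% identity over at least 100 bases). The fit was tested on simulated reads with a set spread that was not estimated from these libraries, so their own spread was not covered. The 13 alternatives were a pseudocount of 0.1, no filter, no trend, median-of-ratios and quantile scaling, voom on the recovered reads, the replicate block and each library left out. Members and lists were chosen with earlier results of these data known. Named genes are the 7 members, Dnm1l, up to 3 called genes per list with the largest differences, tested genes within 100 kb of Pgam5 and the 5 nearest profiles without Gm or Rik symbols. Any further gene was picked with its value known.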

Additional observations from a re-analysis of the deposited data

How the results depend on the processing

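Pgam5, Ripk3, Parl, Keap1 and Ripk1 kept their direction and their side of the threshold under all 13 alternatives. The log2 difference of Map3k5 stayed at 0.24 with no filter on low values (limma adjusted p = 0.106) and with the replicate block (0.063), where it did not pass, and it was 0.20 to 0.29 when each library was left out. In those 2 fits 1 of the 7 genes was called higher, as with 4 of the 6 libraries left out, in a range of 1 to 2. The difference of Mlkl, which never passed, was -0.055 to 0.0093 when each library was left out, with 0.0093 without PGAM5 knockdown library 3 and 0.0024 without DRP1 knockdown library 2. Over all genes, 819 to 1287 were called lower with a library left out, with 819 and 822 without DRP1 knockdown library 3 and 2.

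The replicate numbers gave no sign of pairing in this check. Deviations of same-numbered libraries correlated at 0.021, 0.031 and -0.00034 over genes, and not every library matched its own number best. With the replicate block 1161 genes were called higher and 972 lower, against 1464 and 1240. Under it 3 genes of the death receptor list rose.

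Among lists, with no filter on low values 0 ASK1 genes fell and 3 death receptor genes rose, and the medians were 0.00013 for ASK1, 0.0049 for KEAP1 and 0.00048 for all genes. Median-of-ratios scaling gave 5 death receptor genes that fell and medians of 0.0047 for that list and 0.00039 for all genes, and voom on the recovered reads, which called 1653 of all genes higher and 1507 lower, gave 6 that fell. Quantile normalization gave medians of -0.0092 for KEAP1, 0.033 for PARL and -0.00065 for all genes. With each library left out, 2 to 5 PARL genes rose, 0 to 2 ASK1 genes fell, 3 to 5 death receptor genes rose and 1 to 4 fell. The medians then ran from -0.042 to 0.047 for histidine phosphatases, -0.0025 to 0.034 for KEAP1, 0.024 to 0.075 for ASK1 and 0.0038 to 0.022 for the death receptor list. The causes were not tested. Among the 7 genes in the PGAM5 knockdown, Pgam5 rested on the fewest reads, 200 to 207.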
